A study of Mus musculus with 9 samples.

Results

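The cytosolic ribosomal protein genes encode the proteins of the large (Rpl) and small (Rps) ribosomal subunits outside the mitochondria. Members were taken by symbol: Rpl or Rps followed by a number with an optional a, x, y or l ending, plus Rplp0, Rplp1, Rplp2 and Rpsa, with pseudogene symbols left out. This rule selected 82 of the 31053 genes measured, 51 of the large and 31 of the small subunit, and used no expression value. A further 8 ribosomal protein genes whose symbols fall outside the rule, among them Rps3a1, Fau, Rack1 and Rpl36al, were described separately.

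Bone marrow came from the femurs of 9 female mice aged 9 to 10 weeks: 3 of the inbred strain NZB, 3 of the inbred strain NZW and 3 of their first-generation hybrid NZBWF1, a model of systemic lupus erythematosus. Each mouse gave 1 library of 3′ end-counted single cell RNA, and no mouse received a treatment. Red blood cells were lysed before loading, so erythroid cells here are those that survived lysis. After filtering, 39051 cells and 8106539 to 18663189 unique molecular identifiers (UMIs) per mouse remained, with a median of 2183 to 2537 UMIs per cell.

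Ribosomal protein genes are among the most strongly transcribed genes of growing cells, and their products are made in near-equal amounts because each ribosome holds 1 copy of nearly all of them. In marrow, stem and progenitor cells assemble new ribosomes as they grow and divide, whereas neutrophils reduce their protein synthesis as they mature. Mutations of several members, such as RPS19, RPL5 and RPL11, cause Diamond-Blackfan anaemia, a failure of red cell production. A few members have a second gene copy that is used in particular tissues, such as Rpl3l in striated muscle and Rpl10l and Rpl39l in testis.

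Many ribosomal protein promoters start transcription within a pyrimidine tract. RefSeq promoters (build GRCm38.p6) were matched for 62 members, with 74 start sites in all. The letters CTTTC were found on the gene's strand within 50 bases of the start in 48.6% of member promoters and in 12.8% of all 32851 promoters, CTTCC in 44.6% and 19.5%, and CTTTCC, which overlaps CTTTC, in 29.7% and 4.69%. The letters CCGGAA were found on either strand in 28.4% of member promoters and 8.01% of all, GGGCGG in 33.8% and 21.7%, and TATAAA in 6.76% and 4.94%. These are descriptions of letters, not of binding. The starts of 5 members to which the results below return, 50 bases before to 30 after the RefSeq start, are shown with CTTTC and CTTCC in capitals:
Rps27, chr3:90213619-90213698, minus strand: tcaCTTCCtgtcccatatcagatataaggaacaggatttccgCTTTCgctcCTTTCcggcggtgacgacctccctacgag
Rps27l, chr9:66946036-66946115, plus strand: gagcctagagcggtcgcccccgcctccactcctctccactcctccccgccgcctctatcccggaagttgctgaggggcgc
Rpl22l1, chr3:28805458-28805537, plus strand: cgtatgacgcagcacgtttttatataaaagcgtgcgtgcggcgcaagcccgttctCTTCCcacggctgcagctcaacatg
Rps9, chr7:3703991-3704070, plus strand: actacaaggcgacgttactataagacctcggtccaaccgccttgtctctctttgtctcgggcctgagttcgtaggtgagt
Rpl3l, chr17:24727776-24727855, plus strand: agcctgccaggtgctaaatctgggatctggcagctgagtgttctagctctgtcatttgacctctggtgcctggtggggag
Rps27 holds the letters 3 times and Rpl22l1 holds CTTCC. Rps9, the Rps27l start shown and Rpl3l, the muscle paralog, hold neither motif. A second RefSeq start of Rps27l downstream holds CTTCC after its start.

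Cells were placed in classes by marker genes that include no ribosomal protein gene, and each class is called by its markers with the ending "-like". In the 14 classes used, 7 to 13 of the 8 to 13 listed markers were at least 2-fold above all other cells. Elane, Camp, Cd3e and Ms4a1 were each among the 10 genes most raised in their class. The same lists set the gates, so these values describe the classes and are no independent support. Mature neutrophil-like cells held a median of 7.79% of UMIs in the neutrophil precursor list and 3.55% in their own. Mature B cell-like cells held 0.987% in the B-cell precursor list and 0.674% in their own. A class was measured in a mouse from at least 10 cells, which excluded basophil or mast cell-like and plasma cell-like cells of 2 mice each. Left out were 1825 cells that passed the gates of more than 1 lineage, 3381 between the stages of a lineage and 2625 in no gate. The lineage steps below therefore compare stages without the cells between them. Of the 38879 distinct barcodes, 170 occurred in more than 1 library. Free RNA, read from barcodes with under 100 UMIs, came to 0.253 to 0.733% of a median cell. Members made up 13.8 to 14.1% of free RNA in NZB replicate 2, NZW replicate 2 and NZBWF1 replicates 1 and 2, and 19.9 to 23.9% in the other 5 libraries. The part of free RNA in single results was not tested beyond subtracting it, which left the number of strain differences at 133 against 135.

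The share of a class's UMIs that came from the 82 members differed widely between classes. T cell-like cells held 28.9% ± 1.72 (SD, n = 9 mice), stem-progenitor-like cells 28.5% ± 1.73, early erythroid-like cells 27.7% ± 1.49 and granulocyte-monocyte precursor-like cells 27.4% ± 2.43. These 4 classes formed the top of the order and no neighbouring pair among them passed the test given below. NK cell-like cells followed with 24.8% ± 1.247, late erythroid-like cells with 24.4% ± 1.38, mature B cell-like cells with 22.6% ± 2.72, basophil or mast cell-like cells with 22.2% ± 2.15 (n = 7) and B-cell precursor-like cells with 20.5% ± 1.23. Plasmacytoid dendritic cell-like cells held 17.4% ± 0.749 and monocyte-like cells 17.2% ± 1.37. Plasma cell-like cells held 6.10% ± 0.58 (n = 7), neutrophil precursor-like cells 5.91% ± 0.556 and mature neutrophil-like cells 3.21% ± 0.921, the lowest share of the classes measured.

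Of the 13 neighbouring pairs in this order, 2 differed within mice by an exact two-sided sign-flip test adjusted over the 13 (Benjamini-Hochberg). B-cell precursor-like cells lay above plasmacytoid dendritic cell-like cells in 9 of 9 mice, and neutrophil precursor-like cells above mature neutrophil-like cells in 9 of 9 mice (each exact p = 0.00391, adjusted p = 0.0254). The difference of plasma cell-like from monocyte-like cells (-10.8 percentage points) held in 7 of 7 mice but reached only an adjusted p of 0.0677, because 7 mice cannot give an exact p below 0.0156.

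**Figure D1:**
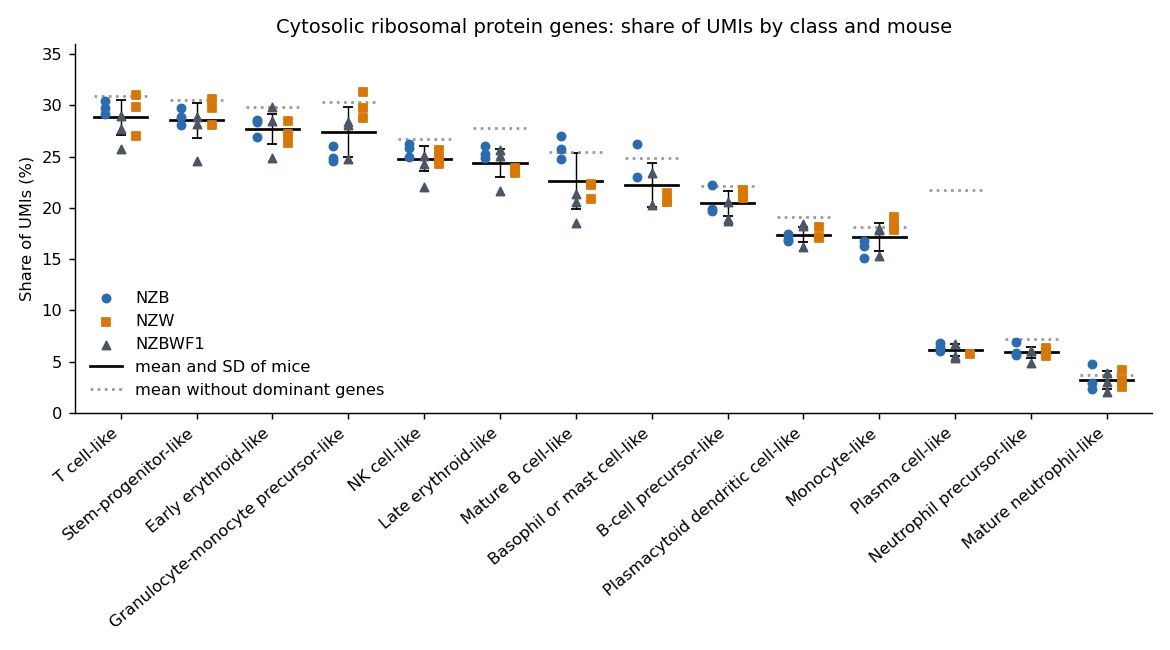
Share of UMIs from the 82 cytosolic ribosomal protein genes (vertical axis, %) in each marker-defined class (horizontal axis), with 1 point per mouse, the strain by colour and shape, and the mean and SD of the mice in black. Neutrophil-like and plasma cell-like classes lie near the bottom, and the dotted mean without dominant genes (mitochondrial, haemoglobin, immunoglobulin and class marker genes) moves up from 6.10% to 21.7% in plasma cell-like cells but stays at 3.68% in mature neutrophil-like cells.

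The share is a part of all UMIs, so a class with a few very abundant transcripts shows a lower share of everything else. Without mitochondrial, haemoglobin, immunoglobulin and class marker genes, plasma cell-like cells, which are filled with immunoglobulin transcripts, held 21.7% ± 1.48 (n = 7). The same recount left neutrophil precursor-like cells at 7.16% ± 0.624 and mature neutrophil-like cells at 3.68% ± 1.06 (n = 9 each). This recount was unequal: it left out 71.9% of the UMIs of plasma cell-like cells but 17.6% and 12.8% in the neutrophil-like classes, where S100a8 and S100a9, abundant calcium-binding proteins of neutrophils that were kept in, took 30.4% and 32.5%. With these 2 genes also left out, a choice made after seeing the data, the shares were 11.3% ± 0.995 and 5.84% ± 1.57, still below the 16.1 to 20.3% of monocyte-like cells, the next class in that order, and plasma cell-like cells held 22.0% ± 1.72 (n = 7). Other abundant genes were not left out.

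Expressed per cell, early erythroid-like cells carried 3361 ± 521 member UMIs, granulocyte-monocyte precursor-like cells 1646 ± 322 and stem-progenitor-like cells 1343 ± 286. Neutrophil precursor-like cells carried 190 ± 16.2 and mature neutrophil-like cells 62.2 ± 19.1 (SD, n = 9 mice). T cell-like cells, at the top of the order by share, carried 463 ± 48.8, at a median depth of 1345 UMIs. That depth was 12202 in early erythroid-like, 5788 in granulocyte-monocyte precursor-like and 4307 in stem-progenitor-like cells. It was 2858.5 in neutrophil precursor-like and 1789 in mature neutrophil-like cells, and counts per cell also depend on it. Large and small subunit genes contributed side by side in each of these classes, with 15.4% and 13.5% of UMIs in T cell-like cells and 1.58% and 1.63% in mature neutrophil-like cells.

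Translation factors, such as the elongation factor Eef1a1, followed the same order in part. They took 3.53% of UMIs in T cell-like cells, 2.72% in granulocyte-monocyte precursor-like cells, 0.742% in neutrophil precursor-like cells and 0.467% in mature neutrophil-like cells. Ribosome biogenesis genes, such as nucleolin (Ncl) and fibrillarin (Fbl), took 0.953% in early erythroid-like cells and 0.260% in late erythroid-like cells. Markers of dividing cells had another order: they were 0.897% of UMIs in late erythroid-like, 0.780% in B-cell precursor-like and 0.112% in T cell-like cells.

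Along the neutrophil lineage the members fell in both steps. From granulocyte-monocyte precursor-like to neutrophil precursor-like cells the share dropped by 21.5 percentage points, and was lower in 9 of 9 mice (exact sign-flip test, adjusted p = 0.00586 over 6 steps). Of the 79 members with enough UMIs to be tested, 79 fell and 0 rose by edgeR's quasi-likelihood test with the mouse as a block (Benjamini-Hochberg adjusted p under 0.05), with a median log2 fold change of -1.38. Of all 8106 genes tested in that step 82.7% were called and 40.4% were lower, and their median was 0.03. Rps2, a small subunit protein near the messenger RNA entry site, fell by 2.25 on the log2 scale (SE 0.08, adjusted p = 1.24e-21) and Rpl3, a core protein of the peptidyl transferase region, fell by 2.14 (SE 0.07, adjusted p = 2.81e-21). Rps9, a small subunit protein that affects decoding accuracy, fell by only 0.28 (SE 0.09, adjusted p = 0.00693).

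From neutrophil precursor-like to mature neutrophil-like cells the share dropped by a further 2.70 percentage points, again lower in 9 of 9 mice (exact adjusted p = 0.00586). Here 75 of 79 members fell and 1 rose, with a median of -0.98, while 70.9% of all genes were called, 36.6% as lower, and their median was -0.04. The member that rose was Rps9, by 0.19 (SE 0.05, edgeR adjusted p = 0.000622). Rps27a, which encodes a ribosomal protein fused to ubiquitin, changed by -0.10 (adjusted p = 0.0617) and Rps27 by 0.10 (adjusted p = 0.12), neither past the threshold. With only cells of at least 2000 UMIs and 1000 genes, 2 limits raised together, this second difference was 0.62 percentage points in the other direction (exact adjusted p = 0.781), with 54 mature neutrophil-like cells left in 4 mice.

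Monocyte-like cells held 10.2 percentage points less than granulocyte-monocyte precursor-like cells, in 9 of 9 mice (exact adjusted p = 0.00586). In this step 78 of 79 members fell and 0 rose, with a median of -0.88 against 0.05 for all genes, of which 76.7% were called and 36.5% were lower. The member not called was Rps9 (log2 fold change 0.06, edgeR adjusted p = 0.174). Ribosome biogenesis genes fell in 21 of 23 tested and 0 rose (median -1.75), and translation factors fell in 18 of 22 and rose in 3 (median -0.45).

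In the erythroid lineage the share fell from 27.7% to 24.4%, lower in late erythroid-like cells in 9 of 9 mice (exact adjusted p = 0.00586). By edgeR, which scales each library to the bulk of its genes, 32 members fell and 10 rose of 79, with a median of -0.06 against -0.02 for all genes, where 62.5% were called and 32.5% were lower. The members' number called, 42 of 79, lay below that background. Ribosome biogenesis genes moved further, with 24 of 25 lower, 0 higher and a median of -1.69. Of the 18 Diamond-Blackfan genes among the members, 8 fell and 3 rose (median -0.04). Rpl7l1, a relative of Rpl7 that acts in ribosome assembly, fell by 1.08 (SE 0.12, adjusted p = 4.08e-15).

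In the B lineage the share rose from 20.5% in B-cell precursor-like to 22.6% in mature B cell-like cells, higher in 7 of 9 mice (exact sign-flip test, adjusted p = 0.0195). By strain the step was 4.76, 4.92 and 6.07 percentage points in NZB, -0.514, 0.577 and 1.39 in NZW and -0.192, 0.777 and 1.65 in NZBWF1 mice. All NZB mice lay above all others, whose steps lay around 0, and the difference between strains was not tested. Of 79 members 56 rose and 4 fell by edgeR, with a median of 0.29 against 0.04 for all genes, of which 63.7% were called and 32.6% were higher. Over the same step markers of dividing cells fell in 15 of 15 genes (median -3.32), mitochondrial ribosomal protein genes fell in 44 of 72 and rose in 2, and ribosome biogenesis genes fell in 10 of 22 and rose in 1. Their part in the members' rise was not tested. The rise in share missed the threshold with stricter gates (1.94 percentage points, exact adjusted p = 0.0625) and with only cells of at least 2000 UMIs and 1000 genes (0.18, exact adjusted p = 0.781).

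From mature B cell-like to plasma cell-like cells the share fell by 16.8 percentage points in 7 of 7 mice (exact adjusted p = 0.0188), and without the dominant genes the difference was -4.06. Without these genes the 2 classes held 29.0% and 21.4% in NZB and 22.8% and 21.3% in NZBWF1 (means of 3 mice each). In the 1 NZW mouse measured in both classes they held 25.2% and 24.1%. The difference between strains was not tested. By edgeR's scaling the members' median was 0.00, with 14 higher and 15 lower of 79, against -0.10 for all genes, of which 63.5% were called and 33.0% were lower. Members called, 29 of 79, were fewer by share than all genes. Mitochondrial ribosomal protein genes rose in 21 of 35 tested and fell in 1 (median 0.69).

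The composition of the members' own UMI pool, the share of each member in the summed member UMIs, varied less than the pool itself. Among the 79 members with a mean of at least 20 CPM (UMIs of a gene scaled to the same total in every library) over classes, the median ratio between the highest and the lowest class was 1.77-fold. The ratio was above 2-fold for 29 members and above 4-fold for 3. Low counts widen such ratios, so those below were read with their SD over mice.

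Rps9 held its largest share of member UMIs in mature neutrophil-like cells. From granulocyte-monocyte precursor-like cells it gained, relative to those UMIs, nearly as much into monocyte-like (log2 fold change 0.95) as into neutrophil precursor-like cells (1.06). It was 6.40% ± 1.41 of member UMIs in mature neutrophil-like cells and 3.01% ± 0.407 in neutrophil precursor-like cells, against 1.44% ± 0.14 in granulocyte-monocyte precursor-like and 1.41% ± 0.0628 in late erythroid-like cells (SD, n = 9). Rps27a was 5.97% ± 1.245 in mature neutrophil-like cells and 1.78% ± 0.0946 in T cell-like cells. Rpl31, a large subunit protein beside the exit of the nascent chain, was 0.775% ± 0.0725 in plasmacytoid dendritic cell-like cells and 0.194% ± 0.0289 in NK cell-like cells. Rpl13a, which is also known for silencing translation of inflammatory transcripts, ranged from 0.263% ± 0.0255 in early erythroid-like to 0.0659% ± 0.0084 in neutrophil precursor-like cells. The Rpl13a values of all classes may be uncertain, because Rpl13a shares its 3′ end with the overlapping gene Gm45713, which was counted separately.

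**Figure D2:**
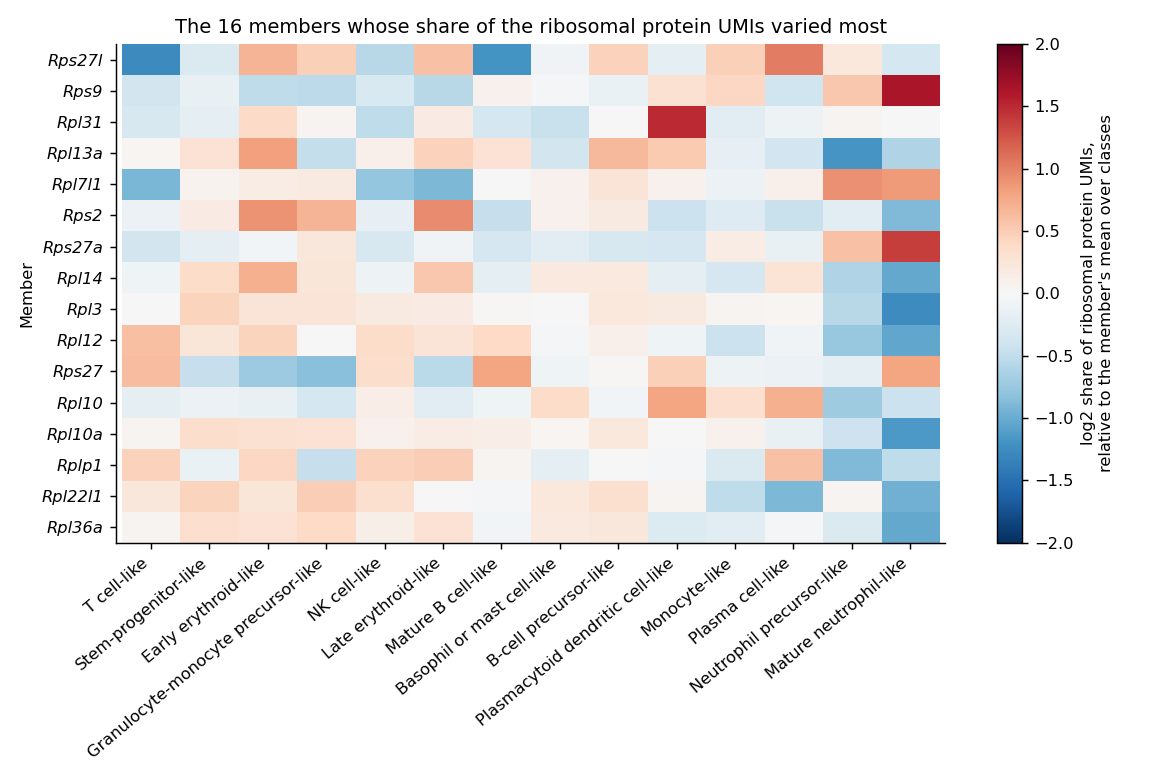
Colour gives the log2 share of each member in the summed ribosomal protein UMIs, relative to that member's mean over the 14 classes, for the 16 members (rows) of widest range and with at least 20 CPM. Rps9 and Rps27a are highest in mature neutrophil-like cells and Rpl31 in plasmacytoid dendritic cell-like cells.

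When counts were scaled to the summed member UMIs, so that the test asked which members changed relative to the others, members still moved in each step. Relative rises and falls were 22 and 33 of 79 from granulocyte-monocyte precursor-like to neutrophil precursor-like, 16 and 27 from there to mature neutrophil-like, and 32 and 30 from granulocyte-monocyte precursor-like to monocyte-like cells. They were 24 and 28 in the erythroid step, 22 and 24 from B-cell precursor-like to mature B cell-like and 18 and 21 from there to plasma cell-like cells. This scaling shifts the median of all genes, to 1.36, 0.85, 0.95, -0.01, -0.22 and -0.14 in these 6 steps, and it called 90.1%, 78.2%, 87.3%, 62.6%, 62.1% and 61.8% of all genes.

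Rps27, a zinc-binding small subunit protein, gained relative to the pool in 5 of the 6 steps. It gained 0.63 (SE 0.07, edgeR adjusted p = 2.79e-10) and then 0.98 (SE 0.11, adjusted p = 8.96e-14) along the neutrophil lineage, 0.72 (SE 0.04, adjusted p = 9.63e-19) into monocyte-like cells and 0.75 (SE 0.05, adjusted p = 9.69e-17) into mature B cell-like cells. Into plasma cell-like cells it lost 0.90 (log2 fold change -0.90, SE 0.08, adjusted p = 2.04e-12). Rps9 gained 1.06 (SE 0.06), 1.07 (SE 0.11) and 0.95 (SE 0.03) in the first, second and monocyte steps (adjusted p = 2.64e-18, 2.33e-16 and 2.89e-25), and Rps2 lost 0.91 and 0.94 in the first and the monocyte step (log2 fold changes -0.91 and -0.94, adjusted p = 5.16e-16 and 5.06e-25). Rpl41, whose product is a very short peptide, gained 1.09 (SE 0.07, adjusted p = 6.09e-16) in plasma cell-like cells, while Rps19 lost there (log2 fold change -0.70, SE 0.07, adjusted p = 1.65e-11). Rps27 shares its 3′ end with the separately counted Rps27rt, and Rpl41 with Gm10076, so their levels could be split between genes.

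Rps27l is a second copy of Rps27 and a known target of p53. Because Rps27 shares its 3′ end with the separately counted Rps27rt, the ratios to Rps27 carry that limit too. As a geometric mean over mice, its UMIs came to 61.7 per 100 of Rps27 in early erythroid-like (50.3 to 74.1 by mouse), 56.3 in granulocyte-monocyte precursor-like (36.6 to 82.5), 51.3 in plasma cell-like (38.5 to 81.0) and 50.8 in late erythroid-like cells (37.4 to 67.8), 4 classes whose mice overlapped. The ratio was 31.2 per 100 in B-cell precursor-like cells, and it was low in T cell-like (6.15, 3.23 to 9.09) and mature B cell-like cells (5.67, 2.15 to 8.57). Within the B lineage the ratio thus fell and rose again: in mature B cell-like cells it was lower than in B-cell precursor-like cells by 2.46 on the log2 scale in 9 of 9 mice (difference -2.46 ± 0.642, SD, exact adjusted p = 0.00746 over 42 tests), and in plasma cell-like cells higher by 3.18 ± 0.788 than in mature B cell-like cells in 7 of 7 mice (exact adjusted p = 0.0252).

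Both genes of the pair moved. Rps27l measured 390.5 to 570.6 CPM in B-cell precursor-like cells (498 ± 51.3, SD, n = 9), 64.3 to 223.2 in mature B cell-like cells (171 ± 47.6, n = 9) and 153.9 to 269.2 in plasma cell-like cells (221 ± 37.3, n = 7). The first group lay above the others, which overlapped each other. Rps27 measured 1602 ± 214, 3010 ± 667 and 437 ± 98.4 CPM in these 3 classes. The size of each gene's change depends on the scaling, since CPM counts the immunoglobulin transcripts of plasma cell-like cells in the total and edgeR scales to the bulk of the genes, whereas the ratio of the pair does not. Over all mice, on edgeR's scale, Rps27l fell by 1.27 into mature B cell-like cells (SE 0.10, adjusted p = 1.10e-15) as Rps27 rose by 1.06 (SE 0.08, adjusted p = 4.36e-17), and into plasma cell-like cells Rps27l rose by 2.17 (SE 0.16, adjusted p = 1.27e-23) as Rps27 fell by 0.90 (SE 0.12, adjusted p = 5.93e-11). The ratio also fell in the neutrophil lineage, by 0.87 and then by 1.53 (differences -0.87 ± 0.324 and -1.53 ± 0.349), and in the monocyte step (-0.71 ± 0.163), each in 9 of 9 mice (exact adjusted p = 0.00746).

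Rpl22l1 is the paralog of Rpl22, a large subunit protein needed in T cell development. Its UMIs were, as a geometric mean over mice, 56.1 per 100 of Rpl22 in stem-progenitor-like and 47.2 in granulocyte-monocyte precursor-like cells, and 24.8 in monocyte-like and 20.2 in plasma cell-like cells. The log2 ratio fell by 0.93 into monocyte-like cells (difference -0.93 ± 0.136, 9 of 9 mice, exact adjusted p = 0.00746). It fell by 0.66 into mature neutrophil-like cells (difference -0.66 ± 0.371, 9 of 9 mice, exact adjusted p = 0.00746) and by 0.85 into plasma cell-like cells (difference -0.85 ± 0.279, 7 of 7 mice, exact adjusted p = 0.0252). From granulocyte-monocyte precursor-like to neutrophil precursor-like cells it differed by 0.01 ± 0.13 (exact adjusted p = 0.852).

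Rpl36al, the autosomal copy of the X-linked Rpl36a, reached 66.1 UMIs per 100 of its partner in plasma cell-like cells and 16.4 in mature B cell-like cells, again as geometric means over mice (difference 2.06 ± 0.611 on the log2 scale, higher in 7 of 7 mice, exact adjusted p = 0.0252). It rose into monocyte-like cells as well (0.72 ± 0.165, 9 of 9 mice, exact adjusted p = 0.00746) and into neutrophil precursor-like cells (0.33 ± 0.322, 8 of 9 mice, exact adjusted p = 0.0339), and fell from early to late erythroid-like cells (difference -0.51 ± 0.361, 9 of 9 mice, exact adjusted p = 0.00746). The 3′ end of Rpl36al is near-identical to that of the separately counted Gm49383, and that of Rpl36a to Rpl36a-ps1. The levels of both genes, and so their ratio, could be affected by this. Rpl7l1 stayed at 1.37 to 4.63 UMIs per 100 of Rpl7, and its ratio fell from early to late erythroid-like cells (difference -1.17 ± 0.755, 9 of 9 mice, exact adjusted p = 0.00746). Across these 4 measured pairs 18 of 24 step tests passed the threshold.

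For Rpl10l, Rpl39l and Rpl3l no ratio was read, because the paralog lay near 0. Rpl10l had 0 UMIs of 126115927 in kept cells, Rpl39l had 33 and Rpl3l 275. Between strains the 4 measured pairs gave 0 of 47 exact permutation tests at an adjusted p under 0.05 (adjusted over the 47, smallest 0.336) and 5 at an unadjusted p under 0.05. Over all 83 tests, which include 36 of the pairs near 0, a single test at the smallest possible p would adjust to 0.296, so these counts of 0 do not show that the strains were alike.

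**Figure D3:**
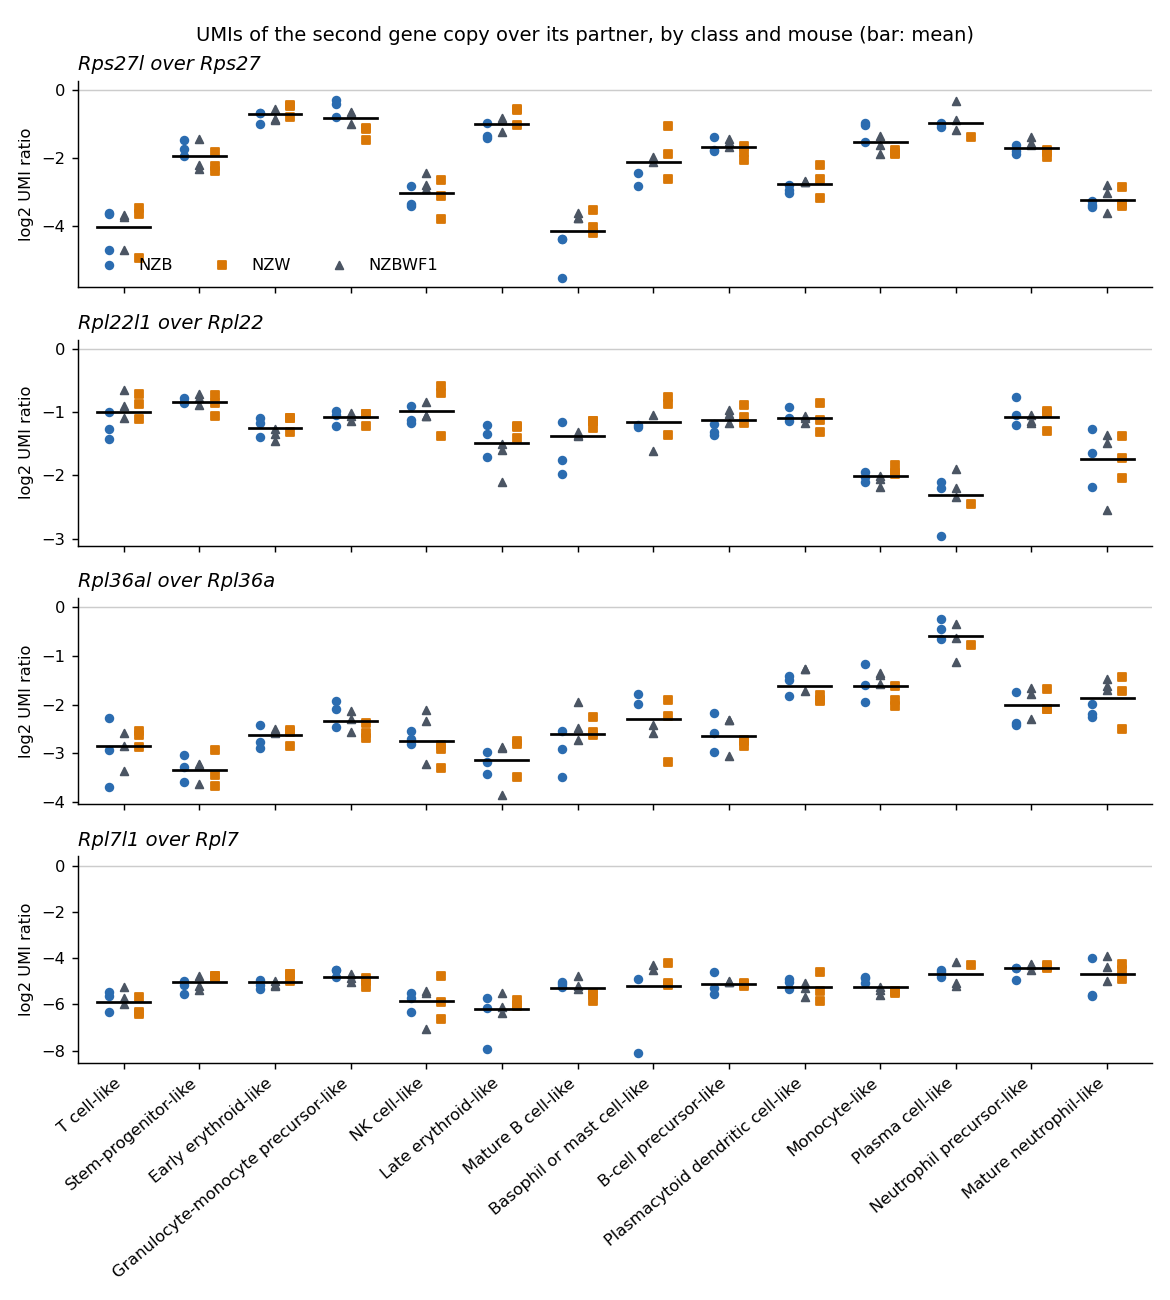
log2 ratio of the UMIs of a second gene copy to those of its partner (vertical axis) in each class (horizontal axis), 1 point per mouse coloured by strain, with the mean as a bar and 0.5 UMI added to both counts. Rps27l over Rps27 is low in T cell-like and mature B cell-like cells and high in erythroid-like and plasma cell-like cells, and Rpl36al over Rpl36a is highest in plasma cell-like cells.

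Between the strains the members' share passed the threshold in 0 of 12 classes by exact permutation of the 9 mice over the 3 strains (smallest possible p = 0.00357), and in 2 of 12 at an unadjusted p under 0.05. Mature B cell-like cells of NZB mice held 25.9% ± 1.11, those of NZW 21.8% ± 0.837 and those of NZBWF1 20.2% ± 1.43 (SD, n = 3 each, exact permutation p = 0.00714, adjusted p = 0.0857). In granulocyte-monocyte precursor-like cells the order of the parents was the opposite, with 25.2% ± 0.785 in NZB, 29.9% ± 1.30 in NZW and 27.1% ± 2.03 in NZBWF1 (exact permutation p = 0.025, adjusted p = 0.15). In both classes the NZB mice did not overlap the NZW mice. The parents also stood apart in monocyte-like cells (15.2 to 16.8% in NZB and 17.9 to 19.1% in NZW). They did so in late erythroid-like cells as well (24.8 to 26.1% in NZB and 23.4 to 23.9% in NZW). Neither of these classes reached an unadjusted p under 0.05, and in the other tested classes the parents overlapped.

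Gene by gene, 135 pairs of a member and a class differed between NZB and NZW by edgeR's quasi-likelihood test on UMIs summed per class and mouse, 39 higher and 96 lower in NZB, over 13 classes in which 77 to 80 members were tested. Of all pairs of a gene and a class 8.81% were called. Of the 80 members tested in any class 64 were called at least once, 27 in 1 class, 25 in 2 and 12 in 3 or more. Of the 490 genes tested in each of the 13 classes, members included, 69.8% were called at least once, so being called once was common among such genes. Mice are the replicates, and no label places them in separate litters or batches. The authors' methods refer to batches without saying which mice each held. Leaving out 1 mouse moved the total between 68 (without NZW replicate 3) and 187 (without NZBWF1 replicate 1), and it was 80 without NZB replicate 3 and 86 without NZW replicate 2.

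Granulocyte-monocyte precursor-like cells had 47 of 79 members called, 46 of them lower in NZB, with a median log2 fold change of -0.35 against -0.02 for all genes. Of all genes there 12.5% were called and 6.69% were lower. Both subunits took part, with 23 of 48 large subunit and 23 of 31 small subunit genes lower, and so did 11 of the 18 Diamond-Blackfan genes. Translation factors were lower for 8 and higher for 2 of 22. Monocyte-like cells had 27 members lower and 1 higher of 79 (median -0.21), where 22.9% of all genes were called, 11.0% were lower and the median was -0.01. Without NZB replicates 2 or 3 or NZW replicate 3 the calls in granulocyte-monocyte precursor-like cells numbered 29, 23 and 18. In monocyte-like cells they numbered 17 without NZB replicate 2, 11 without NZB replicate 3, and 18, 14 and 10 without NZW replicates 1, 2 and 3.

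In mature B cell-like cells the direction was the other: 19 members were higher and 2 lower of 79 in NZB, with a median of 0.29 against -0.02 (all genes 2.88% called, 1.49% higher). The 2 that were lower were Rps2 and Rpl21. Among those higher were Rps12, a small subunit protein, by 0.65 (SE 0.12, adjusted p = 0.000301), Rpsa, also known as the laminin receptor, by 0.57 (SE 0.11, adjusted p = 0.000511), and Rpl15 by 0.52 (SE 0.12, adjusted p = 0.00519). Without NZB replicates 2 or 3 this class held 11 and 7 calls, without NZW replicates 2 or 3 it held 8 and 11, and with stricter gates or without the filter on low counts it held 5.

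Scaled to the members' own UMIs, the calls fell to 7 in granulocyte-monocyte precursor-like (5 higher), 11 in monocyte-like (6 higher) and 6 in mature B cell-like cells (2 higher), and to 62 in all (26 higher, 36 lower). Under this scaling 28.2%, 23.8% and 4.44% of all genes were called in these 3 classes and 9.71% of all pairs of a gene and a class, and the median of all genes stood at 0.33, 0.19 and -0.31. Most members called in these 3 classes on the scale of all genes were therefore not called relative to the members' sum.

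Other measures moved with these classes. In granulocyte-monocyte precursor-like cells genes of dividing cells took 0.330 to 0.381% of UMIs in NZB and 0.254 to 0.275% in NZW, and stem-progenitor markers 0.0303 to 0.0383% and 0.0398 to 0.0405%, with 1 of the 12 stem-progenitor markers at 0. In this class mature neutrophil markers (0.0962 to 0.114% and 0.0691 to 0.0841%), the lists of plasmacytoid dendritic, B-cell precursor, plasma and NK cells and the mitochondrial share (4.89 to 5.69% and 6.05 to 6.58%) did not overlap between the parents either. In monocyte-like cells genes of dividing cells took 0.357 to 0.536% in NZB and 0.254 to 0.280% in NZW, granulocyte-monocyte precursor markers 0.111 to 0.186% and 0.0816 to 0.103%, and the median depth was 2640 to 2834 and 1557 to 2039 UMIs. The monocyte markers themselves (0.820 to 0.891% and 0.979 to 0.990%) and the B-cell precursor, plasma, NK and eosinophil lists did not overlap there either. In mature B cell-like cells B-cell precursor markers took 0.658 to 0.829% in NZB and 0.942 to 1.11% in NZW and plasma cell markers 0.103 to 0.118% and 0.0472 to 0.0577%, the mitochondrial share was 5.69 to 6.17% and 6.30 to 6.70%, and NZB mice gave 178 such cells against 767 in NZW. The stem-progenitor, granulocyte-monocyte precursor, plasmacytoid dendritic, T cell and basophil or mast cell lists did not overlap in that class either. The part of these measures in the members' differences was not tested.

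In the other classes few members were called. They numbered 8 in neutrophil precursor-like (5 higher in NZB; 12.7% of all genes called), 7 in plasmacytoid dendritic cell-like (4 higher; 10.2%), 5 in basophil or mast cell-like (3 higher; 2.96%) and 5 in NK cell-like cells (3 higher; 2.73%). In the basophil or mast cell-like cells the members' median log2 fold change was 0.21, from 2 NZB and 3 NZW mice. Late erythroid-like cells had 4 members called (2 higher; 3.89%), stem-progenitor-like 3 (0 higher; 2.09%), T cell-like 3 (1 higher; 1.94%), B-cell precursor-like 2 (0 higher; 2.26%) and early erythroid-like 2 (0 higher; 6.41%). Mature neutrophil-like cells had 0 by edgeR, where 7.53% of all genes were called, 4 at an unadjusted p under 0.05 and 3 by DESeq2. No share of all genes is given for the unadjusted and DESeq2 counts. With the replicate numbers as a block in the fit, Rps2 and Rpl21 were called in this class too.

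**Figure D4:**
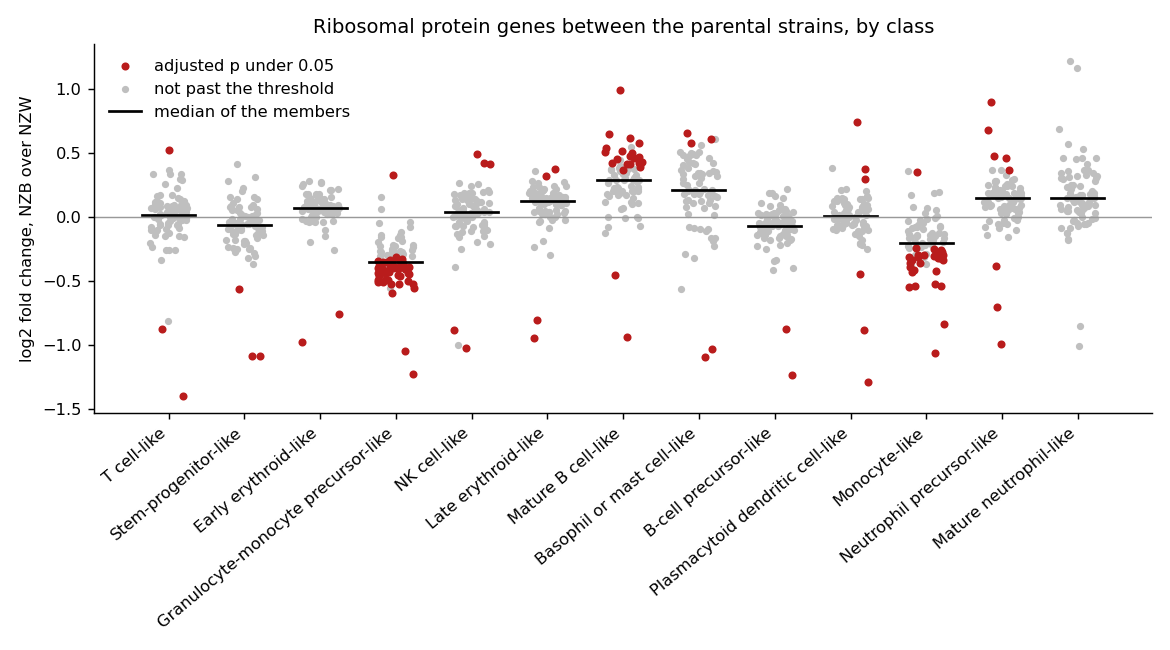
log2 fold change of NZB over NZW (vertical axis) for each tested member, 1 point per gene, in each class (horizontal axis), with genes past an edgeR adjusted p of 0.05 in red and the median of the members as a bar. Rpl3l is not drawn, as it was tested only in plasmacytoid dendritic cell-like cells, where it had 0 UMIs in NZW. The members lie below 0 as a body in granulocyte-monocyte precursor-like and monocyte-like cells and above 0 in mature B cell-like cells, and Rps2 and Rpl21 lie lowest in most classes.

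Rps2 and Rpl21 were lower in NZB in 12 of the 13 classes tested. In granulocyte-monocyte precursor-like cells Rps2 measured 2891, 3077 and 3637 CPM for NZB, 6697, 6711 and 7475 CPM for NZW, and for the NZBWF1 hybrid 5059, 5351 and 5369 CPM. The 3 groups did not overlap, and the hybrid lay between its parents. By edgeR the log2 fold change of NZB over NZW was -1.23 (SE 0.11, adjusted p = 1.58e-15), and over the 12 classes called it ranged from -0.70 in neutrophil precursor-like to -1.40 in T cell-like cells.

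Rps2 levels in monocyte-like cells were 926.6, 1070 and 1264 CPM in NZB, 2228, 2254 and 2318 in NZW and 1662, 1679 and 1696 in NZBWF1. In mature B cell-like cells they were 1137, 1276 and 1396 in NZB, 2329, 2571 and 2805 in NZW and 1658, 1694 and 1711 in NZBWF1. In all of these the strains kept apart with the hybrid in the middle, although the members as a body moved in opposite directions in these classes. Mature neutrophil-like cells were the exception, with 111.4, 114.3 and 157.4 CPM in NZB and 133.4, 229.2 and 444.8 in NZW, which overlap. With the replicate numbers as a block in the fit, Rps2 was called in that class too. In the 12 classes with 3 mice per strain the NZB mice lay below all NZW mice in 11, and the hybrid's mice lay between all mice of both parents in 11.

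Rpl21, a large subunit protein, measured 1468, 1472 and 1700 CPM in granulocyte-monocyte precursor-like cells of NZB mice, 2799, 2957 and 3148 in NZW and 2219, 2257 and 2392 in NZBWF1. Again the groups did not overlap and the hybrid lay between. In this class the log2 fold change was -1.05 (SE 0.11, edgeR adjusted p = 1.253e-12), and over the 12 classes called it ranged from -0.46 in mature B cell-like to -1.09 in stem-progenitor-like cells. In the 12 classes with 3 mice per strain NZB lay below NZW in 12, the hybrid's mice lay between all mice of both parents in 10, and the hybrid's mean lay between the parents in 12. The result without 1 mouse was at least 11 classes for both genes.

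Rps2 and Rpl21 are the members with the most near-identical copies in the genome but for Rpl29. At the last 300 bases of their transcripts Rps2 and Rpl21 each had 36 genes of at least 97% identity over at least 150 bases in GENCODE, of which 35 were pseudogenes, and Rpl29 had 37. Such copies existed for 60 of the 82 members, with a median of 3. Reads that fit several counted genes equally well are usually dropped in UMI counting. Of the near-identical genes, 0 for Rps2 and 1 for Rpl21 (BC004004) were among the genes counted. The part that bases differing between a strain and the reference genome had in these counted levels was not tested.

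Rps3a1, a small subunit gene outside the symbol rule, had the opposite pattern. It measured 6366, 6551 and 6652 CPM in granulocyte-monocyte precursor-like cells of NZB mice, 3441, 3617 and 3753 in NZW and 5269, 5805 and 5826 in NZBWF1. The groups did not overlap and the hybrid lay between, nearer to NZB. It was higher in NZB in 12 of 13 classes, by 0.75 to 1.48 on the log2 scale, and had 6 near-identical copies.

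**Figure D5:**
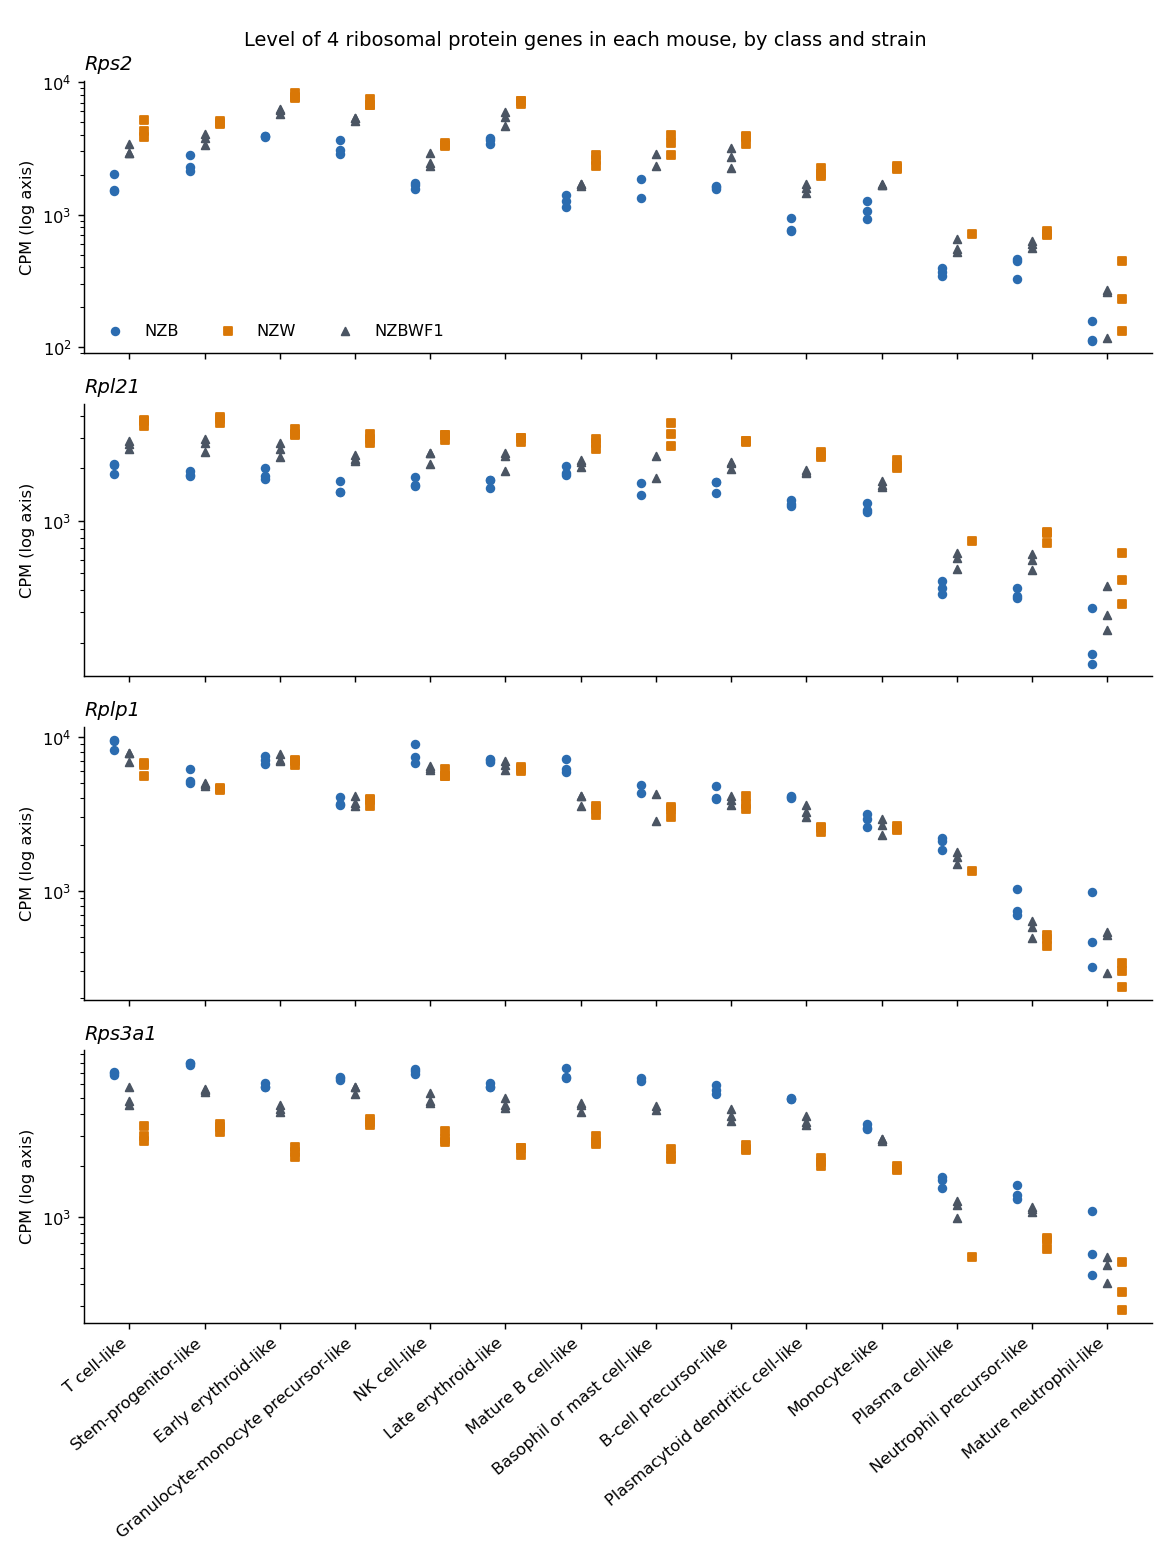
CPM (vertical axis, log scale) of Rps2, Rpl21, Rplp1 and Rps3a1 in each class (horizontal axis), 1 point per mouse, with the strain by colour and shape. Rps2 and Rpl21 rise from NZB through NZBWF1 to NZW in nearly every class, Rps3a1 falls in that order, and Rplp1 is higher in NZB in some classes only.

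The ribosomal stalk recruits elongation factors. Its gene Rplp1 was higher in NZB in 5 classes (those of mature B, T, NK and plasmacytoid dendritic cells and of neutrophil precursors). In mature B cell-like cells it measured 5941, 6180 and 7162 CPM in NZB, 3135, 3387 and 3545 in NZW and 3567, 4152 and 4161 in NZBWF1, so that both parents stood apart and the hybrid lay near NZW (NZB over NZW 0.99, SE 0.11, edgeR adjusted p = 3.08e-09). In granulocyte-monocyte precursor-like cells the strains overlapped, at 3596 to 4105 CPM in NZB and 3559 to 3953 in NZW. Rplp2, the partner of Rplp1 in the stalk, was not called in mature B cell-like cells, and was lower in NZB in monocyte-like (-0.54, SE 0.10, adjusted p = 0.000182), granulocyte-monocyte precursor-like (-0.46, SE 0.11, adjusted p = 0.0019) and stem-progenitor-like cells (-0.56, SE 0.13, adjusted p = 0.00682). These 3 classes became 1 without NZB replicate 3 and 5 without NZB replicate 2 or NZBWF1 replicate 1. Rplp0, the base of the stalk, was higher in NZB in 3 classes, by 0.68 (SE 0.12, adjusted p = 8.33e-05) in neutrophil precursor-like cells and also in mature B cell-like and basophil or mast cell-like cells, the first 2 of which it shared with Rplp1. Rplp1 shares its 3′ end with Gm10073 and Rplp2 with Wdr89, both counted separately.

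Rpl19, a large subunit protein that reaches across to the small subunit, was higher in NZB in 5 classes, by 0.37 to 0.51, and in 3 classes without NZW replicate 2 and 2 without the filter on low counts. In NK cell-like cells it measured 5461, 5856 and 5974 CPM in NZB, 3514, 4298 and 4470 in NZW and 4474, 4486 and 4804 in NZBWF1, with no overlap between the parents. NZB mice lay above all NZW mice in 9 of the 12 classes with 3 mice per strain.

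Rpl3l, the muscle paralog of Rpl3, gave the widest difference from few molecules. In plasmacytoid dendritic cell-like cells it was counted with 70 UMIs in 68 of 1194 NZB cells, 38 UMIs in 38 of 813 NZBWF1 cells and 0 UMIs in 459 NZW cells, which allows up to 0.654% of NZW cells with a UMI and does not limit how many cells express the gene. Per mouse it stood at 25.4, 36.9 and 49.97 CPM in NZB, 14.6, 23.9 and 30.1 in NZBWF1 and 0 in each NZW mouse, so the NZW mice lay below all others. Against a floor of 3 UMIs over the NZW mice, which covers counting error only, the level was at least 11.1-fold higher in NZB and at least 7.51-fold higher in NZBWF1. Rpl3l passed the filter on low counts only through NZB and NZBWF1 in this class and in no other, so its call by edgeR was set by the NZW mice at 0 and is not used as support, although the 135 differences and the 7 of this class include it.

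Rpl3l was also counted in other classes. Mature neutrophil-like cells held 14 UMIs in 14 of 830 NZB cells, 5 in 5 of 720 NZW cells and 14 in 14 of 789 NZBWF1 cells. Neutrophil precursor-like cells held 28 UMIs in all, and the 746 granulocyte-monocyte precursor-like cells of NZB mice held 0. B-cell precursor-like cells held 19 UMIs in 2336 NZW cells, 10 in 2324 NZBWF1 cells and 0 in 432 NZB cells. There NZW stood at 2.86 CPM and the floor of 3 UMIs in NZB at 2.97 CPM, so a difference was not detectable at this depth. The conventional dendritic cell markers took 0.413 to 0.450% of UMIs in plasmacytoid dendritic cell-like cells of NZB, 0.226 to 0.257% in NZW and 0.378 to 0.488% in NZBWF1 mice, with 0 of 11 markers at 0. In the same cells the class's own markers took 1.69% in NZB and 1.49 to 1.53% in NZW, mature B cell markers 0.138 to 0.154% and 0.0602 to 0.0668%, and genes of dividing cells 0.0643 to 0.0939% and 0.143 to 0.313%. The stem-progenitor, granulocyte-monocyte precursor, monocyte, plasma cell, T cell and megakaryocyte lists did not overlap between the parents either, and the part of these measures was not tested. Rpl3l had no near-identical copy. Its annotated start lies 5890 bases beyond the end of Rps2 on the same strand of chromosome 17 (GENCODE, GRCm38: Rps2 at chr17:24718116-24721929, Rpl3l at chr17:24727820-24736143). Rps2 was lower and Rpl3l higher in these NZB cells than in NZW cells, and a link between the 2 genes was not tested.

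At edgeR's adjusted threshold, few members of the hybrid departed from the mean of its parents. In mature B cell-like cells 5 of 79 members were lower in NZBWF1 by edgeR, where 0.433% of all genes were called: Rpl4 (-0.48, SE 0.12), Rpl17 (-0.45, SE 0.10), Rps27 (-0.43, SE 0.11), Rpl12 (-0.42, SE 0.10) and Rpl13 (-0.38, SE 0.09), with adjusted p of 0.0206 to 0.0392. Rpl4 measured 1071, 1377 and 1392 CPM in NZBWF1, 1694, 1725 and 1821 in NZB and 1503, 1618 and 1754 in NZW, so all hybrid mice lay below all parents. A further 64 members had an unadjusted p under 0.05 in this class, and DESeq2 called 59. The share of all genes meeting these criteria is not given here, so these counts cannot be read against a background. The 5 calls became 0 without NZB replicate 3 or NZW replicate 3, 1 without NZBWF1 replicate 1, 2 without NZW replicate 1, 3 without NZB replicate 2, 8 without NZB replicate 1 and 18 without NZBWF1 replicate 2, and 0 when counts were scaled to the members' own UMIs. NZBWF1 replicate 1 had the lowest member share of all mice in this class (18.6%) and over all kept cells (14.3%). Its share was lowest in other classes too, such as early erythroid-like (24.9%) and NK cell-like cells (22.0%). It was not lowest in granulocyte-monocyte precursor-like, monocyte-like or T cell-like cells. The part of this library in the 5 calls was not tested beyond leaving it out.

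In plasmacytoid dendritic cell-like cells the 1 member called of 80 was Rpl3l (0.678% of all genes), a call set by the 0 UMIs of NZW and not used as support. On the CPM scale its hybrid mean of 22.9 ± 7.79 (SD, n = 3) lay between the parents at 37.4 ± 12.3 and 0. In the other 11 classes no member was called, as against 0.645% of all genes. There 1 to 30 members a class had an unadjusted p under 0.05, with the most in neutrophil precursor-like cells, where DESeq2 called 2, and DESeq2 called 0 in the other 10. No share of all genes is given beside these unadjusted and DESeq2 counts.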

How the data were processed

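Single cell RNA libraries (10x 3′ v3.1 chemistry) of femoral marrow from 9 mice were examined, 3 per strain. The authors ran bcl2fastq 2.20 and Cell Ranger 3.1.0 on mm10 and deposited raw UMI counts per gene and barcode, without normalization. Here cells with at least 1000 UMIs, 500 genes and at most 10% of UMIs from 13 mitochondrial genes were kept, and classes were gated by marker shares. Cells in gates of several lineages were left out as possible doublets. Counts were summed per class and mouse where at least 10 cells were present, and tested with edgeR 4.0.16 (quasi-likelihood, TMM scaling, filterByExpr, R 4.3.3) over all genes, with Benjamini-Hochberg adjustment at 0.05. Class steps had the mouse as a block. Shares and paralog ratios (0.5 UMI added) were compared by exact two-sided sign-flip tests within mice or exact permutation over strains, coded with numpy 2.4.6. Fold changes are log2. Intervals and floors cover counting error only.

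Members and gene lists were chosen with earlier results of these data known. Genes were named if they belonged to a paralog pair or the reference members, were called in at least 3 classes or were among the 3 of smallest p in a class, were among the 4 largest rises or falls against the members' pool in a step, or were among the 6 of widest range across classes. Rps3a1, which the symbol rule leaves out, was given values after they were seen. Near-identical genes were searched with blastn 2.17.0 in GENCODE transcripts. Alternatives were DESeq2 1.42.0, its size factors, no filter beyond 1 count, scaling to the members, a replicate block, stricter gates, Scrublet (scanpy 1.11.5), 2000 UMIs and 1000 genes, free RNA subtraction, shares averaged over cells or without dominant genes, and each mouse left out. The alternatives without paralogs near 0 and without S100a8 and S100a9 were chosen after seeing the data. The code was tested on simulated data.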

Additional observations from a re-analysis of the deposited data

Results flagged for a closer look

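The difference in member share between mature B cell-like and granulocyte-monocyte precursor-like cells of the same mouse differed between the parental strains. It was 0.673 ± 1.74 percentage points in NZB, -8.09 ± 0.778 in NZW and -6.91 ± 0.682 in NZBWF1 mice (SD, n = 3 each), which put NZB 8.76 points above NZW (exact permutation test over the 3 strains, p = 0.00714, where the smallest possible p is 0.00357). The pair of classes was chosen after their values were seen, so this p is no independent evidence.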

How the results depend on the processing

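Of 502 results recomputed under an alternative, 438 kept their direction and their side of the threshold or stayed within 1.5 times the count reported, 3 lost the threshold, 60 moved further and 1 reversed. With 2000 UMIs and 1000 genes per cell, the share step to mature neutrophil-like cells reversed to 0.62 percentage points (54 cells in 4 mice), the step to mature B cell-like cells became 0.18 and the step to plasma cell-like cells -15.8 (exact adjusted p = 0.0938), strain calls of NZB against NZW numbered 77 and those of NZBWF1 0, and basophil or mast cell-like, mature B cell-like, mature neutrophil-like and T cell-like cells could not be fitted by strain. Stricter gates gave 1.94 points for the mature B cell-like step. Scaling to the members gave 62 calls between the parents and 1 for the hybrid. The 6 calls of the hybrid became 61 with DESeq2, 12 with its size factors, 11 without the filter, 2 with stricter gates and 19 without Scrublet doublets. Paralog steps past the threshold went from 29 to 18 without the pairs near 0. The cause of these changes was not tested. Apart from the scaling to the members between the parents, no share of all genes is given for the counts of calls here and below. These counts can therefore not be read against a background.

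Leaving out 1 mouse at a time gave share steps of -21.9 to -21.1, -2.81 to -2.63, -3.47 to -3.10, 1.67 to 2.49, -17.5 to -16.3 and -10.4 to -9.99 points in the order reported for granulocyte-monocyte precursor-like to neutrophil precursor-like, to mature neutrophil-like, erythroid, B lineage, plasma cell-like and monocyte-like cells. Members called in these steps ranged from 79 to 79, 76 to 78, 36 to 48, 56 to 61, 27 to 33 and 78 to 78, and against the pool from 53 to 57, 33 to 42, 48 to 55, 43 to 47, 35 to 40 and 58 to 63. Calls between NZB and NZW ranged from 68 to 187, those of the hybrid from 0 (without NZW replicate 3) to 18 (without NZBWF1 replicate 2), and paralog steps from 22 to 29, and strain differences in share and in paralog ratios numbered 0, which is no sign of stability for the ratios, where the best of 83 tests would adjust to 0.296.

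Mice share replicate numbers across strains, and no label says that a number marks a batch or day. In no class did all 9 same-numbered pairs correlate above 0.1, so the numbers were not used to pair mice, but 7 of 9 did in mature neutrophil-like (median 0.346), 6 in neutrophil precursor-like and 5 in T cell-like cells, where 9 of 9 mice correlated best with their own number. In mature neutrophil-like cells the share was 1.99 to 2.51% in mice numbered 1, 3.91 to 4.80% in those numbered 2 and 2.89 to 3.17% in those numbered 3. With the replicate block 138 pairs of a member and a class were called between NZB and NZW, 43 in granulocyte-monocyte precursor-like, 24 in monocyte-like and 21 in mature B cell-like cells, 20 for the hybrid, and the share passed in 0 classes (smallest adjusted p = 0.5, where a single class at the smallest possible p would adjust to 0.333). Rps2 and Rpl21 were called in 13 classes each under the block. The share of all genes called under the block is not given here.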
